A study of Mus musculus with 11 samples.

Results

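A set of 8 marker genes of the intestinal crypt, Lgr5, Olfm4, Ascl2, Smoc2, Axin2, Rnf43, Sox9 and Slc12a2, were followed through RNA-seq libraries of mouse intestine. They were chosen by symbol, as 4 markers of crypt base stem cells, 3 genes of the Wnt feedback and target group and 1 ion transporter of crypt cells. All 8 of 8 were among the 24294 symbols of the deposited table, and all 8 stayed among the 10764 that reached 1 FPKM in 3 or more libraries. FPKM is a fragment count divided by gene length and by the size of the library. There were 4 libraries labelled HLJDD, 4 labelled HFD and 3 labelled ND, 11 in all. HLJDD has the initials of Huang Lian Jiedu Decoction, the herbal preparation in the series title, which also speaks of obese mice and of lipid metabolism. The labels give no strain, age, dose or time, do not spell out HFD or ND, and do not state what the HLJDD mice were fed. All groups share the tissue label intestine, with no stretch of gut named. No label states that the libraries are from different animals. The p-values below therefore cover the spread among libraries, and that spread may be technical.

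The lining of the small intestine is renewed from stem cells at the base of the crypts. These cells are kept by Wnt signals. Wnt proteins and R-spondins act through Frizzled, Lrp and Lgr receptors, beta-catenin then enters the nucleus, and with TCF factors it turns on target genes. Several of these targets, Axin2 and Rnf43 among them, damp the same pathway. Lgr5 encodes an R-spondin receptor, Ascl2 a transcription factor that controls stem cell identity, Olfm4 a secreted glycoprotein abundant in crypt base cells, and Smoc2 a secreted matrix protein of the stem cell signature. Axin2 is a scaffold of the complex that degrades beta-catenin, Rnf43 a membrane ubiquitin ligase that removes Frizzled receptors, and Sox9 a transcription factor of crypt base cells. Slc12a2 (NKCC1) is the sodium, potassium and chloride cotransporter through which crypt cells load chloride for secretion.

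Depth was 30100481 to 37940645 reads per library, recovered from the FPKM steps. Mitochondrially encoded transcripts made up 40.7% of reads in HLJDD replicate 2 and 32.4% in HFD replicate 1, and 10.4% to 19.3% in the other 9. Both stood apart for the crypt genes as well, so results are given with and without them. The label intestine was met by enterocyte markers, since 10 of 10 were above 0 in every library. Distal small intestine markers (7 genes, none at 0 in any library) summed to 256.5 to 459.4 FPKM in HLJDD and 312.7 to 457.1 FPKM in HFD. In ND replicates 1, 2 and 3 they summed to 11690, 8228 and 1328 FPKM. Fabp6 made up most of this sum in ND replicates 1 and 2, at 9821 and 6702 FPKM, and read 396.8 FPKM in ND replicate 3. Proximal markers (6 genes, none at 0) summed to 8731 to 15030 FPKM in HLJDD and 11570 to 15030 FPKM in HFD. In ND replicates 1, 2 and 3 they summed to 507.8, 2032 and 4582 FPKM, so the ND libraries also differed among themselves. Of 5 kept proximal markers, 1 was lower in HFD than in ND, against the direction of the sum. Mature enterocyte markers summed to 23280 to 38600 FPKM in HLJDD, 32330 to 37740 FPKM in HFD and 11680 to 20090 FPKM in ND. Immune cell markers, 6 of 7 above 0 in every library, summed to 86.6 to 255.0 FPKM in HLJDD, 125.2 to 237.1 FPKM in HFD and 41.8 to 66.3 FPKM in ND. The gut region that these markers point to and the ND label cannot be told apart in any comparison with ND. In bulk tissue, fewer cells of a type and less RNA per cell cannot be told apart either.

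No crypt gene passed the test in any comparison, whereas many other genes did in the comparisons with ND. The test was limma on log2(FPKM + 1), two-sided, with Benjamini-Hochberg adjustment over all 10764 genes and a threshold of 0.05. For HLJDD against HFD, 0 of 8 crypt genes passed, beside 0.0% of all genes tested. For HLJDD against ND, 0 of 8 passed, beside 11.9% of all genes. For HFD against ND, 0 of 8 passed, beside 16.6% of all genes. At an unadjusted p under 0.05 limma called 0 of 8 in each comparison, beside 1.73% of all genes for HLJDD against HFD, 28.8% for HLJDD against ND and 36.7% for HFD against ND. Limma-voom on the recovered reads also called 0 of 8 after adjustment in each. The groups overlapped for 8 of 8 crypt genes in HLJDD against HFD, where 1.03% of all genes did not overlap, and for 8 of 8 in HLJDD against ND, where 29.6% did not. The genes were measured above the level of scattered reads, with at least 47 reads in every library, the lowest being Ascl2 in HFD replicate 1.

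The 8 genes covered a wide range of levels. In ND, Olfm4 was far above the others at 234 ± 14.1 FPKM (SD, n = 3), followed by Slc12a2 at 20.3 ± 4.75 FPKM, Smoc2 at 13.0 ± 1.30 FPKM, Axin2 at 7.68 ± 1.28 FPKM and Rnf43 at 3.57 ± 0.147 FPKM. The ND ranges of these 5 genes did not overlap. Sox9 at 2.17 ± 0.656 FPKM, Ascl2 at 1.61 ± 0.0719 FPKM and Lgr5 at 1.40 ± 0.641 FPKM came last, and their ND ranges overlapped. Even within ND the genes were not equally steady. The coefficient of variation was 4.12% for Rnf43, 4.47% for Ascl2 and 6.02% for Olfm4, but 30.2% for Sox9 and 45.8% for Lgr5.

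**Figure D1:**
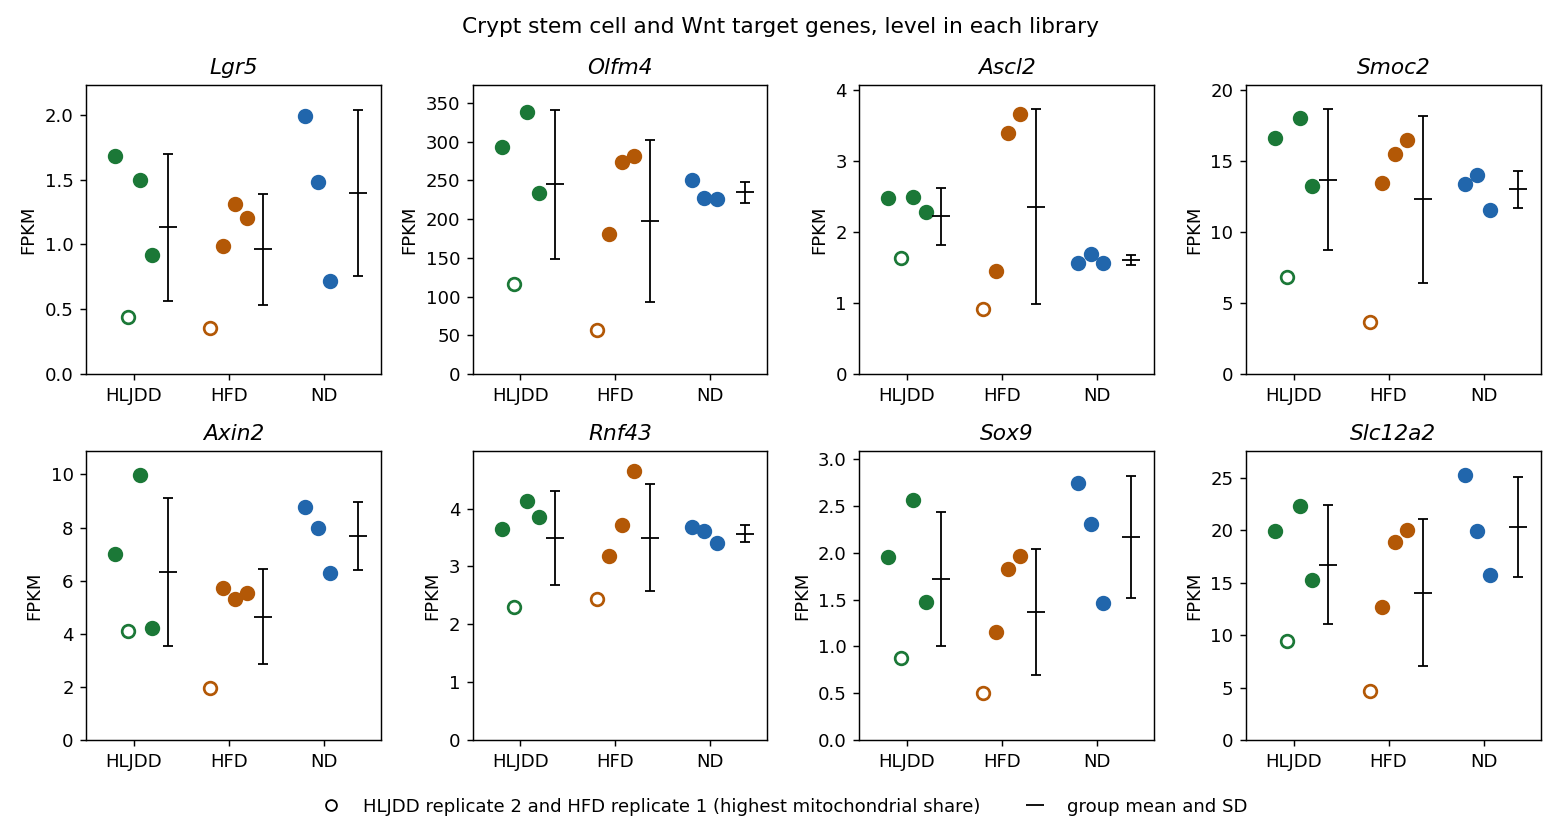
Level of each crypt gene in FPKM (y axis, linear, from 0) in every HLJDD, HFD and ND library (x axis), with the group mean and SD beside the points. Open circles are HLJDD replicate 2 and HFD replicate 1, which lie at the bottom of their groups for most genes, for example at 116 and 57.1 FPKM for Olfm4.

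Among the stem cell markers, Lgr5 read 1.68, 0.437, 1.49 and 0.920 FPKM in HLJDD, 0.353, 0.987, 1.31 and 1.20 FPKM in HFD, and 1.99, 1.48 and 0.720 FPKM in ND. The groups overlapped throughout, and HLJDD replicate 2 and HFD replicate 1 were the lowest libraries. The limma difference in log2(FPKM + 1) was 0.11 for HLJDD minus HFD (95% interval -0.42 to 0.63), -0.17 for HLJDD minus ND (-0.74 to 0.39) and -0.28 for HFD minus ND (-0.85 to 0.28). Without those 2 libraries these were 0.11, 0.0023 and -0.11, and with 1 library left out the last ran from -0.50 to -0.10. Lgr5 rested on 53 to 331 reads per library.

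Olfm4 read 293, 116, 338 and 234 FPKM in HLJDD, 57.1, 181, 274 and 281 FPKM in HFD, and 251, 227 and 226 FPKM in ND. ND was tight, while HLJDD and HFD each held libraries both above and below all of ND. The difference was 0.44 for HLJDD minus HFD (95% interval -0.56 to 1.43), -0.04 for HLJDD minus ND (-1.12 to 1.04) and -0.48 for HFD minus ND (-1.55 to 0.60). Without HLJDD replicate 2 and HFD replicate 1 the HLJDD minus ND and HFD minus ND differences turned to 0.28 and 0.04, and neither passed the limma test (adjusted p = 0.303 and 0.891). Smoc2 behaved in the same way. It read 16.6, 6.85, 18.0 and 13.2 FPKM in HLJDD, 3.67, 13.5, 15.5 and 16.5 FPKM in HFD, and 13.4, 14.03 and 11.5 FPKM in ND. The 2 libraries of high mitochondrial share were far below the rest, and the others lay within or above the ND range. The difference was 0.23 for HLJDD minus HFD (-0.61 to 1.08), 0.00 for HLJDD minus ND (-0.92 to 0.91) and -0.24 for HFD minus ND (-1.15 to 0.68). Smoc2 was also the one member called under any alternative: without those 2 libraries and with median-ratio scaling it was 0.35 higher in HFD than in ND (limma adjusted p = 0.0375, beside 27.5% of all genes called in that fit). Over the other alternatives its adjusted p ran up to 0.966, and with all libraries and no scaling its difference was negative.

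Ascl2 was the stem cell marker with a positive difference against ND in both groups. It read 2.48, 1.63, 2.48 and 2.29 FPKM in HLJDD, 0.916, 1.45, 3.40 and 3.66 FPKM in HFD, and 1.57, 1.69 and 1.57 FPKM in ND. HLJDD replicates 1, 3 and 4 lay above all of ND, and HFD was split, with replicates 3 and 4 at more than any ND library and replicates 1 and 2 below. The difference was 0.03 for HLJDD minus HFD (95% interval -0.51 to 0.57), 0.29 for HLJDD minus ND (-0.29 to 0.88) and 0.26 for HFD minus ND (-0.32 to 0.85). None passed the limma test (adjusted p = 0.999, 0.497 and 0.476). After median-ratio scaling, which sets each library by the median ratio of its genes, Ascl2 read 2.15 to 2.29 scaled FPKM in HLJDD and 1.40 to 1.48 scaled FPKM in ND, so these groups no longer overlapped. That was 1 of 8 crypt genes, beside 18.0% of all genes higher without overlap on that scale. The limma difference then was 0.39 and did not pass (adjusted p = 0.263). Without HLJDD replicate 2 and HFD replicate 1, the HFD minus ND difference of Ascl2 was 0.50, which moved it by over 1.5 times. Its 95% interval, 0.03 to 0.97, then left out 0, but it did not pass (limma adjusted p = 0.0977).

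Axin2 pointed the other way. It read 7.005, 4.09, 9.97 and 4.23 FPKM in HLJDD, 1.97, 5.73, 5.31 and 5.55 FPKM in HFD, and 8.79, 7.99 and 6.27 FPKM in ND. Every HFD library was below every ND library, while HLJDD spanned both. Axin2 was 1 of 8 crypt genes whose HFD and ND values did not overlap, beside 32.9% of all genes that were lower in HFD without overlap and 19.4% after scaling. The difference was 0.38 for HLJDD minus HFD (95% interval -0.27 to 1.02), -0.31 for HLJDD minus ND (-1.004 to 0.39) and -0.68 for HFD minus ND (-1.38 to 0.01). The last did not pass (limma adjusted p = 0.141). Its adjusted p over the alternatives to the limma fit was 0.110 to 0.341. Permuting the HFD and ND labels in all 35 ways gave an exact two-sided p = 0.0571 for the means, with 0.0286 the smallest value possible. Without HLJDD replicate 2 and HFD replicate 1 the HFD minus ND difference was -0.40 (limma adjusted p = 0.209), moved by over 1.5 times.

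Ascl2 and Axin2 had the one positive and the most negative of the 8 differences in HFD against ND, so the stretches upstream of their starts are printed. Each is the 250 bases before the start in RefSeq's GRCm38.p6 (mm10) promoter table, read 5′ to 3′ on the gene's strand. The Ascl2 window lies on the minus strand at chr7:142969265-142969514, and the Axin2 window on the plus strand at chr11:108920099-108920348, inside the span of the Axin2 gene and upstream of a later start. Neither window holds an annotated exon.
Ascl2: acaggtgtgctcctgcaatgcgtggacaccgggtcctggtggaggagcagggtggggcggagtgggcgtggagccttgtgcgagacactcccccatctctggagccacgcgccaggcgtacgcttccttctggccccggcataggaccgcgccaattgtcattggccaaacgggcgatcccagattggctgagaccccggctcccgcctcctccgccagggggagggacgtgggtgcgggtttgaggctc
Axin2: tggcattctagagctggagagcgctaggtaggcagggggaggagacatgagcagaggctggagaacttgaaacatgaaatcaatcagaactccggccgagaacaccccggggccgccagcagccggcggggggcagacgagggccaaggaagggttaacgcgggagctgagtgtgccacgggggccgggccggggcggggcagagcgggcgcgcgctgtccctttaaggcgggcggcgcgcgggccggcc
Both windows are rich in G and C, at 67.6% for Ascl2 and 69.2% for Axin2 against a median of 52.4% over all windows. Neither holds CTTTGA or its reverse complement TCAAAG, the core of the TCF site, nor CAGCTG, an E-box of the kind bound by Ascl2-type factors, so no base is in capitals. Over all 32851 windows of the same length, 13.8% hold the first motif on either strand and 13.0% the second. The table held windows for 4 of the 8 genes, and the windows of Olfm4 and Rnf43 hold neither motif.

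The ratio of Ascl2 to Axin2 within a library does not depend on scaling. It was 0.249 to 0.540 in HLJDD, 0.253 to 0.660 in HFD and 0.178 to 0.250 in ND. All HFD libraries stood above ND, and HLJDD replicate 3 fell just inside the ND range. This ratio was chosen after the values were seen and was not tested.

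Rnf43, the other feedback gene, was the steadiest member. It read 3.65, 2.31, 4.13 and 3.86 FPKM in HLJDD, 2.44, 3.19, 3.72 and 4.64 FPKM in HFD, and 3.69, 3.61 and 3.40 FPKM in ND. The highest library was 2.01 times the lowest, against 4.00 to 5.92 times for the other members. The difference was 0.00 for HLJDD minus HFD (95% interval -0.38 to 0.38), -0.05 for HLJDD minus ND (-0.45 to 0.36) and -0.04 for HFD minus ND (-0.45 to 0.36), the narrowest intervals of the 8 genes. Sox9 read 1.96, 0.881, 2.57 and 1.48 FPKM in HLJDD, 0.507, 1.16, 1.83 and 1.97 FPKM in HFD, and 2.75, 2.30 and 1.46 FPKM in ND. Its groups overlapped, with ND replicate 3 at the level of the middle libraries. The Sox9 difference was 0.21 for HLJDD minus HFD (-0.32 to 0.75), -0.24 for HLJDD minus ND (-0.82 to 0.34) and -0.45 for HFD minus ND (-1.03 to 0.13). Without HLJDD replicate 2 and HFD replicate 1 these were 0.18, -0.074 and -0.25, and with 1 library left out they ran from 0.012 to 0.38, -0.41 to -0.074 and -0.62 to -0.25.

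Slc12a2, the chloride-loading cotransporter, read 19.9, 9.46, 22.3 and 15.2 FPKM in HLJDD, 4.69, 12.7, 18.9 and 20.04 FPKM in HFD, and 25.2, 19.96 and 15.8 FPKM in ND. Both HLJDD and HFD reached into the ND range, and HFD replicate 1 lay far below it. The difference was 0.34 for HLJDD minus HFD (95% interval -0.49 to 1.16), -0.31 for HLJDD minus ND (-1.20 to 0.58) and -0.64 for HFD minus ND (-1.53 to 0.25). Without HLJDD replicate 2 and HFD replicate 1 the HFD minus ND difference was -0.23 (limma adjusted p = 0.433), moved by over 1.5 times, and the HLJDD minus ND difference was -0.07 (adjusted p = 0.826).

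**Figure D2:**
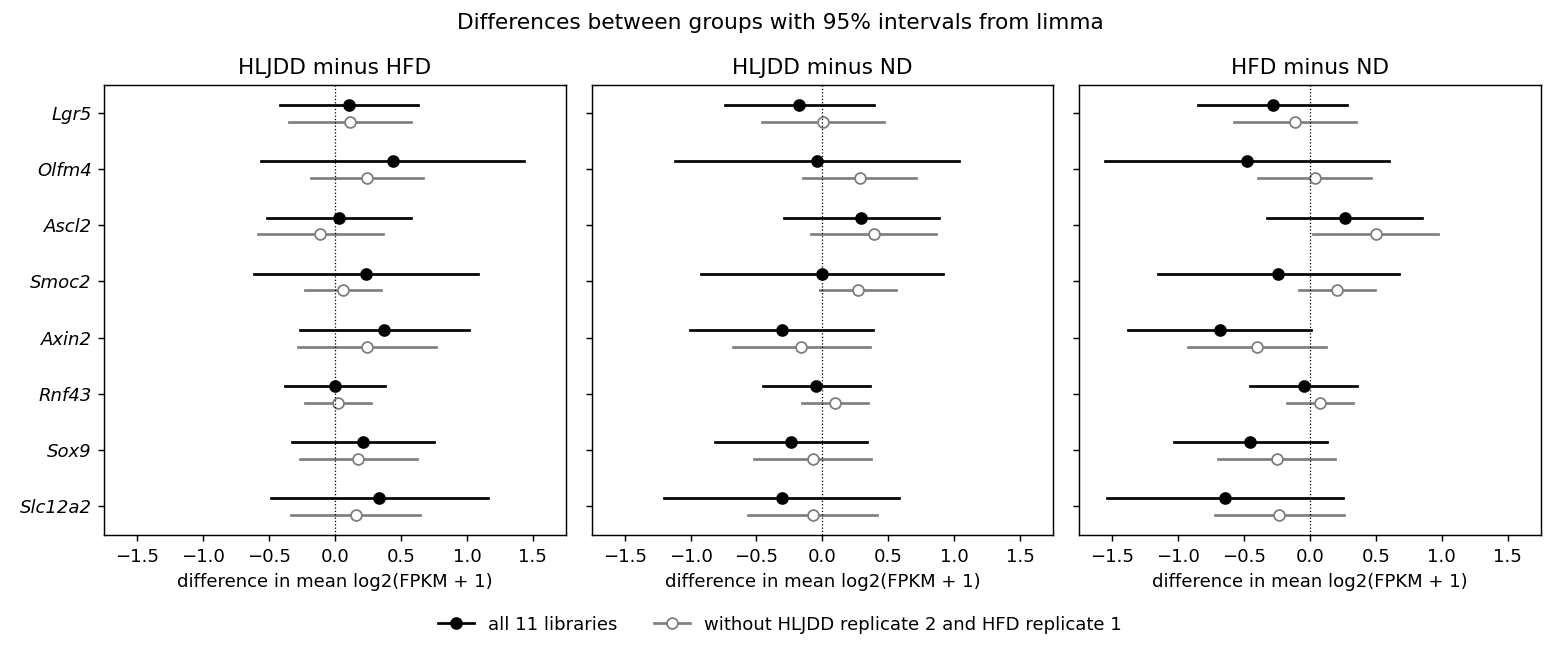
Differences in mean log2(FPKM + 1) (x axis) for each crypt gene (y axis) in HLJDD minus HFD, HLJDD minus ND and HFD minus ND, with 95% intervals from limma. Filled points use all 11 libraries and open points leave out HLJDD replicate 2 and HFD replicate 1. With all libraries each interval takes in 0, and the Axin2 interval for HFD minus ND, -1.38 to 0.01, reaches it only at its end. Without the 2 libraries the Ascl2 interval for HFD minus ND, 0.03 to 0.97, lies above 0, with a limma adjusted p = 0.0977.

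Over the 8 genes, the median difference was 0.22 for HLJDD minus HFD, -0.11 for HLJDD minus ND and -0.37 for HFD minus ND. Over all genes tested these medians were 0.06, -0.13 and -0.21. After median-ratio scaling the medians of the 8 genes were 0.17, -0.01 and -0.20, with those of all genes at 0.00, 0.00 and -0.01. Without HLJDD replicate 2 and HFD replicate 1 they were 0.14, 0.05 and -0.04 on the deposited values. HFD and HLJDD were both set against the same ND libraries, so their values against ND are not independent. Against HFD, 7 of 8 genes had a positive difference in HLJDD, beside 65.9% of all genes, and 6 of 8 after scaling, beside 49.6%, none past the test. With scaling and without HLJDD replicate 2 and HFD replicate 1 it was 5 of 8, beside 50.0%.

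HFD replicate 1 was the lowest of the 11 libraries for 7 of 8 crypt genes, and HLJDD replicate 2 was the lowest or next to lowest for 7 of 8. After median-ratio scaling these counts were 7 of 8 for HFD replicate 1 and 5 of 8 for HLJDD replicate 2. The deposited FPKM of the 8 genes summed to 71.6 in HFD replicate 1 and 141.8 in HLJDD replicate 2, but to 219.3 to 398.6 in the other 9 libraries. Most of each sum was Olfm4, at 57.1 and 116.1 FPKM in these 2 libraries. After scaling the sums were 93.8 and 186.9, against 217.5 to 347.1 in the other 9 libraries. The 22 other stem cell signature genes did not follow this order. They summed to 123.8 FPKM in HLJDD replicate 2, but to 204.9 FPKM in HFD replicate 1, within the 163.3 to 257.2 FPKM of the other 9. After scaling these sums were 163.2 and 268.3, against 152.6 to 223.9. For the other Wnt target genes the order depended on scaling. As deposited they summed to 105.2 FPKM in HLJDD replicate 2 and 110.7 FPKM in HFD replicate 1, against 127.8 to 142.8 FPKM in the other 9. Their scaled sums were highest in HFD replicate 1, at 144.9 against 122.2 to 138.7 elsewhere. Cell cycle genes did follow the order of the members. The summed level of 20 genes such as Mki67, Top2a and the Mcm helicase subunits was 140.4 FPKM in HLJDD replicate 2 against 215.9 to 262.4 FPKM in the other HLJDD libraries, 102.7 FPKM in HFD replicate 1 against 200.5 to 212.7 FPKM in the other HFD libraries, and 226.4 to 270.1 FPKM in ND.

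Markers of other cells in these 2 libraries did not all lie low. Smooth muscle markers (8 of 8 above 0 in every library) summed to 194.4 FPKM in HLJDD replicate 2 and 174.6 FPKM in HFD replicate 1, against 232.5 to 667.5 FPKM in the other 9. After median-ratio scaling these sums were 256.3 and 228.7, against 229.9 to 643.4 in the other 9, so HLJDD replicate 2 then lay within their range. Paneth cell markers, which come from neighbours of the stem cells in the crypt base, summed to 400.6 FPKM in HLJDD replicate 2, the highest of all libraries, and to 222.8 FPKM in HFD replicate 1, within the 80.1 to 377.7 FPKM of the rest. Of these 9 Paneth markers, 8 were above 0 in every library. The part of RNA quality and of cell makeup in the low crypt values was not tested.

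**Figure D3:**
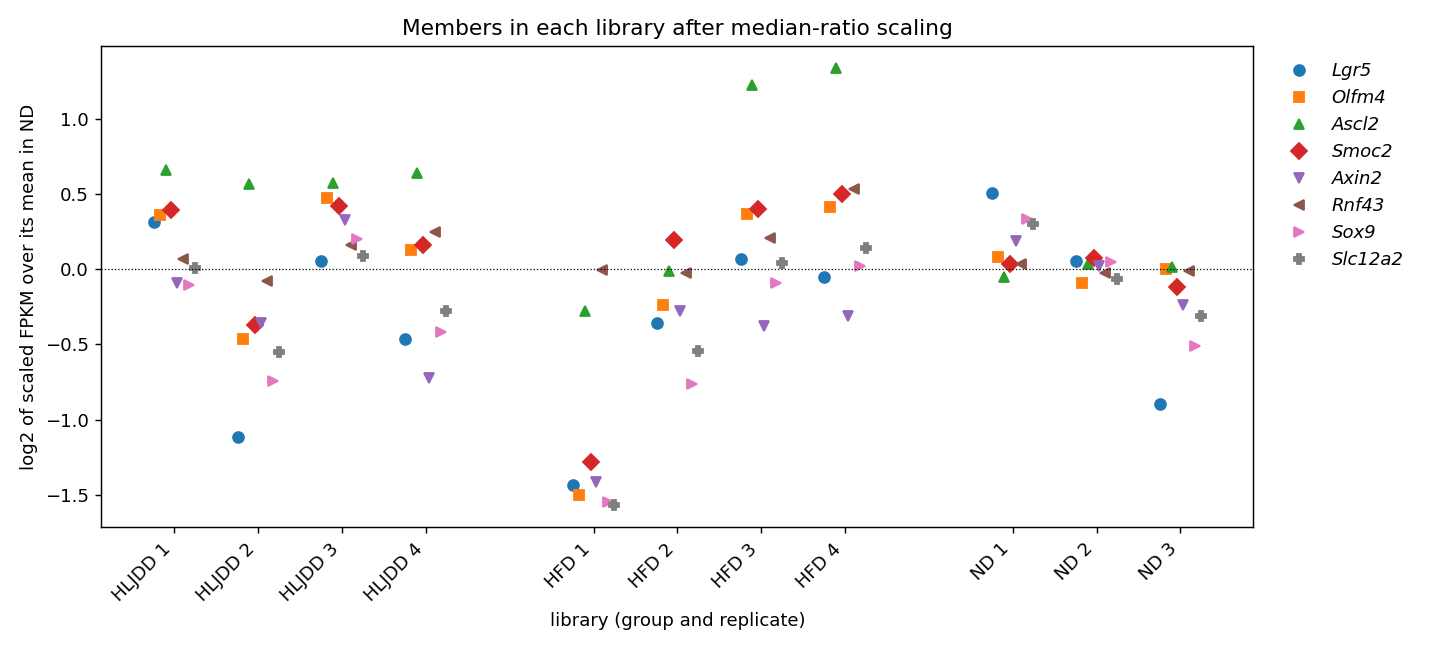
The log2 ratio of each crypt gene's median-ratio scaled FPKM to its ND mean (y axis) in every library, grouped by label (x axis), with 1 symbol per gene. In HFD replicate 1 Rnf43 sits near 0 and the other members lie below it, while Ascl2 stands above its ND mean in all 4 HLJDD libraries and in HFD replicates 3 and 4.

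The wider Wnt and stem cell program was read from 9 gene lists, with 105 of 160 genes kept. The share called was near that over all genes in both comparisons with ND, at 13.3% beside 11.9% for HLJDD and 18.1% beside 16.6% for HFD. For HLJDD against HFD, 0 of 105 passed the limma test, beside 0.0% of all genes. For HLJDD against ND, 14 of 105 passed, 6 higher and 8 lower, beside 4.1% higher and 7.79% lower over all genes. For HFD against ND, 19 of 105 passed, 7 higher and 12 lower, beside 5.06% and 11.5%. Scaling evened the directions over all genes: 441 higher and 838 lower became 1011 and 1063 for HLJDD against ND, and 545 and 1241 became 1351 and 1344 for HFD against ND. On that scale the lists held 12 higher and 13 lower genes for HLJDD against ND (9.39% and 9.88% over all genes), and 10 higher and 15 lower for HFD against ND (12.6% and 12.5%).

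On the ligand and receptor side, 3 of 20 Wnt ligand and R-spondin genes were kept, and in HFD against ND the 1 that passed was Wls, which carries Wnt proteins to the cell surface. Rspo3, a main stromal R-spondin, read 0.277 to 1.07 FPKM in HLJDD, 0.170 to 1.32 FPKM in HFD and 0.494 to 1.34 FPKM in ND, and did not pass. Of 8 kept receptors, 2 fell in HFD against ND and 1 in HLJDD against ND. Lgr4, the R-spondin receptor related to Lgr5, read 9.30 to 16.5 FPKM in HLJDD, 5.45 to 16.9 FPKM in HFD and 24.7 to 34.9 FPKM in ND, and neither group overlapped ND, as for 21.3% of all genes lower in HLJDD and 32.9% lower in HFD. It fell by 1.26 in HLJDD against ND (limma adjusted p = 0.0209) and by 1.37 in HFD against ND (adjusted p = 0.0116). Leaving out ND replicate 1 ended both calls (adjusted p = 0.105 and 0.0657). The HLJDD call was also lost without ND replicate 2 (0.0809) and HLJDD replicate 4 (0.0639), with no expression filter (0.0604) and with the replicate number as a block (0.0604).

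Among 16 kept genes of Wnt signal transduction, HLJDD against ND gave 1 rise and 1 fall, and HFD against ND gave 1 rise and 3 falls. Tcf7l2, the main TCF factor of the intestinal lining, read 3.36 to 4.13 FPKM in HLJDD, 3.17 to 4.56 FPKM in HFD and 6.25 to 6.47 FPKM in ND. It fell by 0.66 in HFD against ND (limma adjusted p = 0.00539, called in 20 of 20 alternatives that tested it) and by 0.62 in HLJDD against ND (adjusted p = 0.00885, but 0.0504 without ND replicate 2). Gsk3a, a kinase of the complex that degrades beta-catenin, rose by 0.63 in HFD against ND (adjusted p = 0.0113), a call lost without ND replicate 1 (0.060) or ND replicate 2 (0.0538) and with equal sums (0.0906). Its levels were 55.8 to 74.5 FPKM in HLJDD, 58.1 to 71.3 FPKM in HFD and 39.98 to 44.65 FPKM in ND.

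Other Wnt target genes split in direction. Of 12 kept, 3 rose and 1 fell in both comparisons with ND. Ccnd1, which encodes cyclin D1, fell by 1.74 in HFD against ND (adjusted p = 0.00862), with 6.87 to 14.8 FPKM in HLJDD, 2.93 to 13.8 FPKM in HFD and 24.0 to 30.2 FPKM in ND. Sp5, a transcription factor induced by Wnt, rose by 1.06 in HFD against ND (adjusted p = 0.00434), with 6.26 to 8.40 FPKM in HLJDD, 7.60 to 11.2 FPKM in HFD and 2.56 to 5.38 FPKM in ND. Lbh, a transcription cofactor also induced by Wnt, rose by 1.27 in HFD against ND (adjusted p = 0.0124). These 3 calls for HFD against ND held in 21 of 21 alternatives. In HLJDD against ND, Ccnd1 fell by 1.37 (limma adjusted p = 0.0319) and Sp5 rose by 0.77 (0.0265), called in 13 and 14 of 21 alternatives. There Lbh rose by 0.98 (limma adjusted p = 0.0461), called in 7 of 21. Lbh in HLJDD replicate 2, at 2.85 FPKM, lay within the 2.17 to 3.37 FPKM of ND. Jun, an AP-1 factor, also rose in HFD against ND by 0.90 (adjusted p = 0.0153), but not without ND replicate 1 (0.0824) or ND replicate 2 (0.0688).

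In the list of 22 other stem cell signature genes, 19 were kept, 2 rose in HFD against ND and 1 rose in HLJDD against ND. Slc14a1, a urea transporter, read 0.798 to 1.88 FPKM in HLJDD, 0.857 to 2.14 FPKM in HFD and 0.277 to 0.445 FPKM in ND. It rested on 39 to 66 reads per ND library. No ND library reached 1 FPKM, so the filter kept it only through HLJDD and HFD libraries. It rose in both, by 0.84 in HLJDD against ND (adjusted p = 0.0175) and by 0.82 in HFD against ND (adjusted p = 0.0157). Both calls were lost without ND replicate 1 (adjusted p = 0.0851 and 0.0733) and without ND replicate 2 (0.0756 and 0.0682), and the HLJDD call also without HLJDD replicate 1 (0.0502). Gkn3 read 1.13 to 7.11 FPKM in HLJDD, 0.832 to 8.09 FPKM in HFD and 0.138 to 0.373 FPKM in ND. It too was kept only through HLJDD and HFD libraries, and had 4 to 11 reads per ND library. Both differences of Gkn3 missed the threshold, at 1.82 for HLJDD minus ND (adjusted p = 0.0531) and 1.68 for HFD minus ND (adjusted p = 0.0571), but passed with scaling (0.0370 and 0.0364) and without HLJDD replicate 2 and HFD replicate 1 (0.0124 and 0.0117). In all, they passed in 10 and 7 of 20 alternatives. Of 20 kept cell cycle genes, Mcm4 alone fell in HFD against ND and none passed in HLJDD against ND, and 19 of 20 differences were negative in each, beside 66.2% of all genes in HLJDD against ND and 70.7% in HFD against ND. After scaling 17 of 20 were negative in each, beside 49.5% and 51.2%. Leaving out HLJDD replicate 2 and HFD replicate 1, 4 cell cycle genes fell and 1 rose in HLJDD against ND, beside 23.9% of all genes called in either direction. In the same fit 8 fell in HFD against ND, beside 21.7% of all genes lower.

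The niche signals that oppose or pattern the stem cell zone held 2 genes, Bmp2 and Dll4, that fell in both comparisons with ND under every alternative that tested them. That was 21 alternatives for Bmp2 and 20 for Dll4, which the filter on a mean of 5 FPKM left out. Bmp2, a ligand of the BMP pathway that restrains Wnt-driven growth, read 1.96 to 6.90 FPKM in HLJDD, 2.22 to 6.34 FPKM in HFD and 12.9 to 20.4 FPKM in ND. It fell by 1.95 in HLJDD against ND and by 1.88 in HFD against ND (limma adjusted p = 0.00373 and 0.00368). Dll4, a Notch ligand displayed by Paneth and secretory cells to the stem cells, read 1.19 to 2.07 FPKM in HLJDD, 1.36 to 1.77 FPKM in HFD and 3.61 to 5.07 FPKM in ND. It fell by 1.08 in each (adjusted p = 0.00117 for HLJDD against ND and 0.000904 for HFD against ND). Both groups lay wholly below ND for Bmp2 and Dll4, as for 21.3% of all genes lower in HLJDD and 32.9% lower in HFD. For HFD against ND, 14.3% of 14 kept BMP genes and 33.3% of 6 kept Notch genes were called, beside 16.6% of all genes. The related ligand Dll1 went the other way, with 4.73 to 6.30 FPKM in HLJDD, 5.66 to 7.34 FPKM in HFD and 3.25 to 5.40 FPKM in ND. It rose by 0.54 in HFD against ND (limma adjusted p = 0.0371, and 0.00347 with scaling), a call lost in 10 of 21 alternatives, up to 0.175 without ND replicate 1. In HLJDD minus ND the Dll1 difference was 0.39 (adjusted p = 0.127, and 0.0199 with scaling). Smad4, the shared signal carrier of BMP and TGF-beta, fell by 0.82 in HFD against ND (adjusted p = 0.0117, called in 21 of 21 alternatives). The Paneth cell, stromal niche and smooth muscle lists held 0 called genes by limma in all 3 comparisons, beside 0.0%, 11.9% and 16.6% of all genes. With scaling, without HLJDD replicate 2 and HFD replicate 1, or with both changes, 1 smooth muscle gene was lower in HLJDD than in ND, and with both 1 was higher in HFD than in ND. In the fit without HLJDD replicate 2 and HFD replicate 1, 2 Paneth genes were lower in HLJDD and 1 was higher in HFD, each against ND, beside 23.9% of all genes called in either direction for HLJDD and 9.41% higher for HFD. Goblet cell markers (7 of 7 above 0 in every library) summed to 3018 to 3881 FPKM in HLJDD, 4110 to 4644 FPKM in HFD and 1221 to 2206 FPKM in ND, and 3 of 7 rose in each comparison with ND. Tuft cell markers (6 of 7 above 0) summed to 8.0 to 10.8 FPKM in HLJDD, 8.08 to 14.03 FPKM in HFD and 14.1 to 20.3 FPKM in ND, and 2 of 4 kept fell in each. Enteroendocrine markers (7 of 7 above 0) summed to 106.8 to 161.5 FPKM in HLJDD, 127.6 to 227.1 FPKM in HFD and 89.5 to 96.9 FPKM in ND, with 1 of 7 higher in HLJDD and 2 of 7 in HFD. In HFD against ND, 3 of 10 mature enterocyte markers rose, and 0 of 5 kept immune cell markers were called. With scaling 2 of these 5 immune markers were higher. Over all genes, 4.1% were called higher and 7.79% lower in HLJDD against ND, and 5.06% higher and 11.5% lower in HFD against ND. The part of these cell types in the Wnt and niche values was not tested. Distal markers fell in both groups, 7 of 7 kept in HLJDD against ND and 6 of 7 in HFD against ND. Of 5 kept proximal markers, 3 were called higher and 1 lower in HFD against ND. The part of gut region in the Bmp2, Dll4 and Wnt pathway values was not tested.

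Many of the other calls in these lists were lost when 1 library was left out, as were many calls over all genes. Over all genes, the 1786 calls for HFD against ND became 664 without ND replicate 1 and 689 without ND replicate 2. The 1279 for HLJDD against ND became 470 and 493. Of the 19 calls in the lists for HFD against ND, 11 were lost without ND replicate 1 (adjusted p = 0.060 to 0.175) and 11 without ND replicate 2 (0.0538 to 0.136). Leaving out HLJDD replicates 1 or 4, HFD replicates 1, 2, 3 or 4 or ND replicate 3 ended 3 to 6 of them each time (0.0503 to 0.0917). Of the 14 for HLJDD against ND, 12 were lost without ND replicate 2 (0.0504 to 0.132), 11 without ND replicate 1 (0.0607 to 0.158), 10 without HLJDD replicate 4 (0.0544 to 0.129), 8 without HLJDD replicate 1 (0.0502 to 0.110) and 5 without ND replicate 3 (0.0584 to 0.131). Leaving out HLJDD replicates 2 or 3 or HFD replicates 2, 3 or 4 ended 1 or 2 calls each. The replicate number as a block ended 9 of the 14 (0.0604 to 0.1004) and 6 of the 19 (0.0535 to 0.0935). For HFD against ND, the calls lost both without ND replicate 1 and without ND replicate 2 included those of Wls, the receptor gene Lrp5, Csnk1a1 of the degradation complex, Hopx of reserve stem cells and Mcm4.

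**Figure D4:**
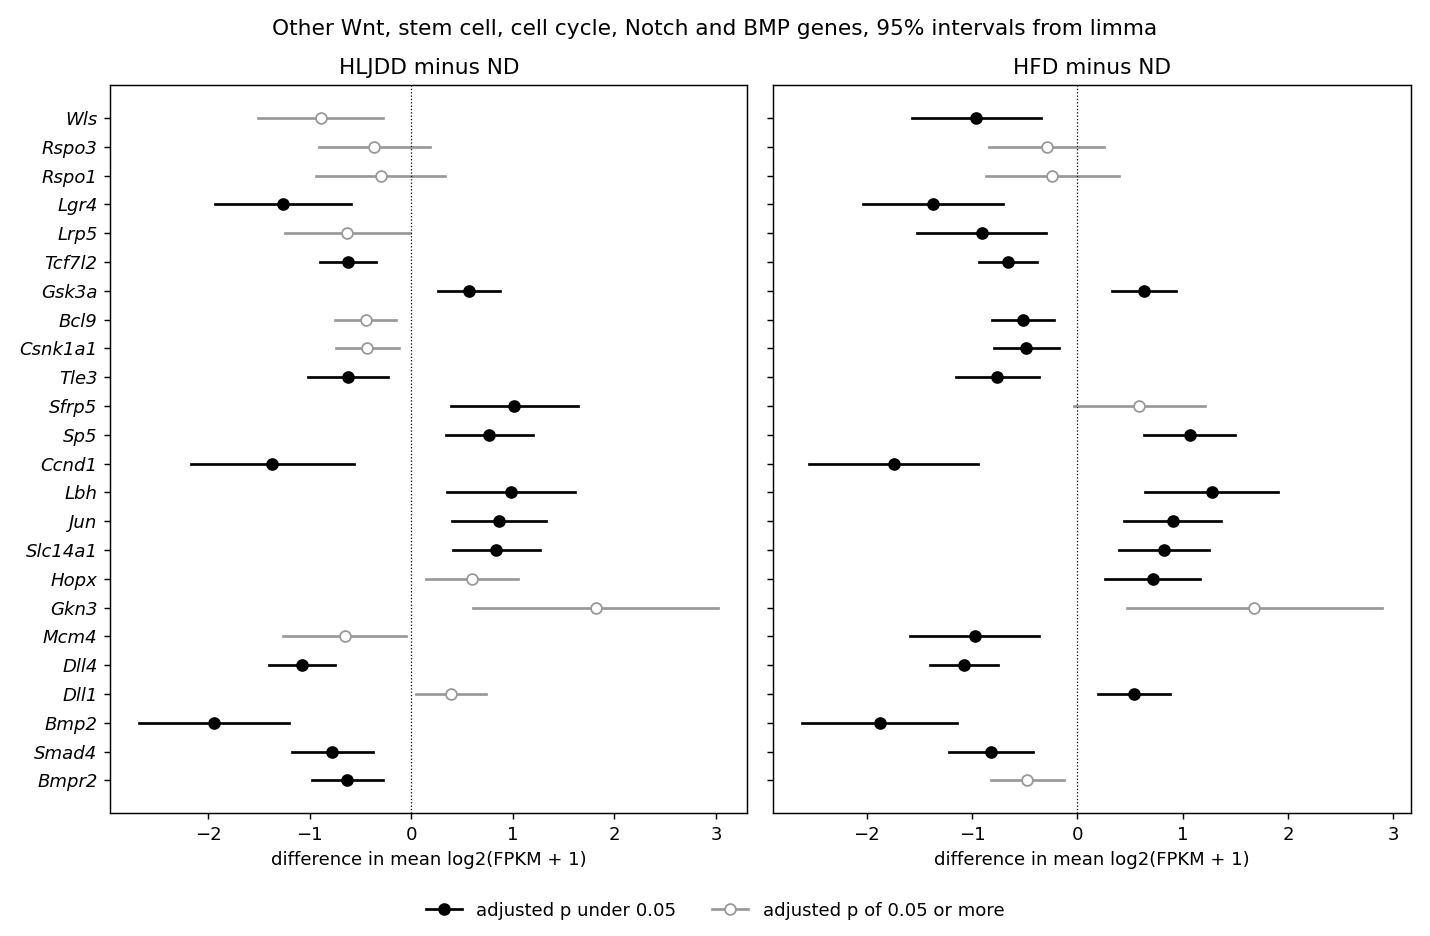
Differences in mean log2(FPKM + 1) with 95% limma intervals (x axis) for 24 other genes of the Wnt, stem cell, cell cycle, Notch and BMP lists (y axis), in HLJDD minus ND and HFD minus ND. Filled points have an adjusted p under 0.05 and open points do not. Bmp2 lies lowest in both panels, at -1.95 and -1.88, and Sp5 and Lbh are on the positive side in both.

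The genes whose scaled log2 levels ran most like each member over the 11 libraries were found by Pearson correlation among all kept genes. Bmp3 was nearest to Lgr5 (r = 0.944), Cps1 to Olfm4 (0.968), Usp2 to Ascl2 (0.923), Cftr to Smoc2 (0.959) and Gas6 to Axin2 (0.958). Abcc2 was nearest to Rnf43 (0.91), Lrrc58 to Sox9 (0.971) and Mpzl2 to Slc12a2 (0.984). Over the 9 libraries without HLJDD replicate 2 and HFD replicate 1, r was 0.904 for Bmp3 and Lgr5, 0.84 for Cps1 and Olfm4, 0.953 for Usp2 and Ascl2, and 0.945 for Mpzl2 and Slc12a2. Lrrc58 was among the 3 nearest genes of Lgr5, Sox9 and Slc12a2. The points share their libraries and thus depth and RNA quality, and each is the best of 10764 genes, so the values are a description.

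In RefSeq on GRCm38.p6, Lgr5 spans chr10:115450314-115587780, Olfm4 chr14:80000302-80023141, Ascl2 chr7:142966822-142969264 and Smoc2 chr17:14279490-14404790. Axin2 spans chr11:108917828-108950783, Rnf43 chr11:87663087-87735539, Sox9 chr11:112782210-112787757 and Slc12a2 chr18:57878512-57946821. Genes overlap Lgr5, Olfm4, Smoc2, Axin2 and Rnf43 in the GENCODE annotation, antisense ones among them, and whether the counting used strand is not given here. Of those with a row in the table, the overlapping genes of Lgr5 and Olfm4 reached at most 0.0029 and 0.00496 FPKM, and that of Rnf43 0.0398 to 0.163 FPKM.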

How the data were processed

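RNA of mouse intestine was sequenced in 11 libraries, grouped by their titles. Per the labels' protocols, extraction used TRIzol and library construction the VAHTS Universal V6 kit. Per the submitters' processing notes, the authors used fastp, HISAT2, HTSeq and R 3.2.0 with the mm10 build. The deposited values are FPKM per gene symbol. Neither annotation nor strand setting is given in the sources used here.

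Each gene's FPKM are whole multiples of the worth of 1 read, which gave back whole reads for 24294 of 24294 symbols (100.0%, within 0.02 reads of a whole number). Depth ran from 30100481 to 37940645 reads per library. Intervals reflect the spread between libraries. The 10764 symbols that reached 1 FPKM in 3 or more libraries were tested on log2(FPKM + 1), where changes of low genes come out too small, with limma 3.58.1 in R 4.3.3. All 11 libraries entered 1 fit with a variance trend, two-sided, with Benjamini-Hochberg adjustment at 0.05. "Higher" and "lower" values are differences of group means on that scale. The script was tested on simulated data. Mitochondrial reads are those of 13 protein-coding genes.

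The members and gene lists were chosen with earlier results of these data known, so a list's direction is no independent evidence. Named genes are the 8 members, up to 4 genes of smallest p per list and comparison, and the 3 most alike genes per member. Alternatives were median-ratio scaling, equal sums (TPM), a pseudocount of 0.1, no filter, a mean filter of 5 FPKM, a replicate block, limma-voom on recovered reads, a fit of only the 2 groups at hand, and each library left out. Leaving out the 2 libraries of highest mitochondrial share, with and without scaling, was added after the data were seen.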

Additional observations from a re-analysis of the deposited data

Results flagged for a closer look

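Of 64 sets of values screened, 1 held a library far from the others: Axin2 in HFD replicate 1, at 1.97 FPKM against 5.31 to 5.73 FPKM in the other HFD libraries, a gap of 0.888 of the group's range. Chance gives about 1 such set in 20, so 1 of 64 is no more than chance alone gives. HFD replicate 1 also had a mitochondrial share of 32.4%, and the part of that share in the Axin2 value was not tested.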

How the results depend on the processing

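No crypt gene was called in any comparison under the alternatives listed, except Smoc2 in the 1 named below, and of 492 alternative values of the members 444 kept their direction and their side of the threshold. The other 48 changed sign; the cause was not tested. For HFD minus ND, median-ratio scaling gave 0.14 for Rnf43. The alternatives without HLJDD replicate 2 and HFD replicate 1, added after seeing the data, gave 0.038 (0.19 with scaling) for Olfm4, 0.21 (0.35) for Smoc2 and 0.076 (0.19) for Rnf43. For HLJDD minus HFD, Ascl2 was -0.011 with scaling, -0.11 without those 2 libraries and -0.19 with both changes, Smoc2 was -0.038 with both, and Rnf43 was 0.029 with equal sums, 0.0048 with limma-voom and 0.019 without the 2 libraries. For HLJDD minus ND, scaling, leaving out the 2 libraries, and both gave 0.13, 0.28 and 0.32 for Olfm4, 0.15, 0.27 and 0.31 for Smoc2 and 0.078, 0.095 and 0.13 for Rnf43, and Lgr5 was 0.0023 without the 2 libraries and 0.026 with both changes.

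Leaving out 1 library at a time gave ranges across 0. For HFD minus ND they were -0.72 to 0.038 for Olfm4, -0.43 to 0.21 for Smoc2 and -0.16 to 0.076 for Rnf43. For HLJDD minus HFD they were -0.061 to 0.28 for Lgr5, -0.078 to 0.76 for Olfm4, -0.21 to 0.22 for Ascl2, -0.21 to 0.51 for Smoc2, -0.12 to 0.14 for Rnf43 and -0.077 to 0.57 for Slc12a2. For HLJDD minus ND they were -0.40 to 0.0045 for Lgr5, -0.23 to 0.28 for Olfm4, -0.15 to 0.27 for Smoc2 and -0.12 to 0.095 for Rnf43.

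Counts of called genes moved more. For HFD against ND the 1786 genes became 2695 with scaling, 1145 with equal sums, 3352 without the 2 libraries and 2955 with both changes, where 1 member (Smoc2) was called. They ran from 664 without ND replicate 1 to 3317 without HLJDD replicate 2, with 689 without ND replicate 2. For HLJDD against ND the 1279 became 2074, 2575 and 2640 with scaling, without the 2 libraries and with both, and 470 to 1696 with 1 library left out. For HLJDD against HFD, 0 became 1 without the 2 libraries, and 0 to 1 with 1 left out. With 1 library left out, calls in the Wnt and stem cell lists ran from 2 to 24 for HLJDD against ND and from 8 to 34 for HFD against ND.

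With the replicate number as a block, 1080 genes were called for HFD against ND, 724 for HLJDD against ND and 0 for HLJDD against HFD, with 0 members in each. Deviations of same-numbered libraries correlated at -0.219 to 0.366, and 2 of 11 libraries correlated best with their own number. The labels do not say whether same-numbered libraries shared a day or batch, and these correlations cannot settle it. Depth limits Ascl2 and Lgr5 most, with as few as 47 and 53 reads in a library.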
